A study of Rattus norvegicus with 16 samples.

Results

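Receptors for the transmitters glutamate, GABA and glycine were followed across the adrenal lesions of p27Kip1 mutant rats and wild-type adrenomedullary tissue. The genes were taken by symbol, as every gene of the AMPA, kainate, NMDA, delta and metabotropic glutamate receptor families and of the GABA-A, GABA-B and glycine receptor families that a probe set of the array names alone. That gave 46 of 14217 measured genes and 78 of 31042 probe sets. They comprise 4 AMPA, 5 kainate, 7 NMDA, 1 delta and 7 metabotropic glutamate receptor genes, 16 GABA-A, 2 GABA-B and 4 glycine receptor genes. Each gene is represented by the probe set whose mean over the 16 arrays is highest, unless another is named.

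All animals had the strain label Sprague–Dawley white eye/Wistar–Kyoto and were kept free of specific pathogens. The mutation in p27Kip1, a cyclin-dependent kinase inhibitor whose gene the labels spell Cdknb1, was carried by both lesion groups and by no wild-type pool. At 2 months there were 8 adrenal hyperplasias, of which 4 were labelled female (replicates 1 to 4) and 4 male (replicates 5 to 8), and 2 wild-type pools. Young wild-type pool 1 held 2 animals labelled male and pool 2 held 3 animals labelled female. The 4 pheochromocytomas, tumours of the catecholamine-secreting chromaffin cells of the adrenal medulla, came from rats of 8 months labelled female (replicates 1 to 3) and of 9 months labelled male (replicate 4). Older wild-type pool 1 held 2 animals of 10 months labelled female, and pool 2 held 2 animals of 12 and 17 months labelled male. The young pools match the hyperplasias in age, whereas the older pools are older than the pheochromocytomas. Total RNA of each sample was hybridised to 1 array, and all values are log2 signals, so a difference of 1 is a doubling.

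AMPA, kainate and NMDA receptors are cation channels opened by glutamate and assembled from several subunits, and metabotropic glutamate receptors act through G proteins. GABA-A and glycine receptors are chloride channels, whereas GABA-B receptors act through G proteins and need both of their subunits. Chromaffin cells share a neural crest origin with sympathetic neurons, respond to GABA and glutamate, and release catecholamines when depolarised. The adrenal cortex, the steroid-producing outer layer, surrounds the medulla and can be carried along in dissected tissue.

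Promoter sequence from RefSeq (build GRCr8) was held for 33 of the 46 receptor genes. The 250 bases before the transcription start are shown for Glrb and Grin2c, the largest fall and the largest rise against wild type among genes with an entry, and for Grik5 and Gabra3, because their base composition differs widely. Glrb lies at chr2:168505615-168505864, Grin2c at chr10:101005139-101005388, Grik5 at chr1:89794910-89795159 and Gabra3 at chrX:155543871-155544120, all on the minus strand. The letters run 5′ to 3′ on the gene's strand, and capitals mark the GC box GGGCGG on either strand.
Glrb: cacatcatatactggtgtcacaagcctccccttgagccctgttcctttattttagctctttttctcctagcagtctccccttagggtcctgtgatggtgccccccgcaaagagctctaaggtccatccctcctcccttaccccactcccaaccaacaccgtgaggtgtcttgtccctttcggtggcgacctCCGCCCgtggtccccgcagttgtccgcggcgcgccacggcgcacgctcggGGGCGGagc
Grin2c: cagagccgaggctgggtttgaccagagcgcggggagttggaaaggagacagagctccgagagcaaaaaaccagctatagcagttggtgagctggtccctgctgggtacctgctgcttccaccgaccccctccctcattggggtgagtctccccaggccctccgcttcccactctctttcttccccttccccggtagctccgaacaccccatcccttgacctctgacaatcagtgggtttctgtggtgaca
Grik5: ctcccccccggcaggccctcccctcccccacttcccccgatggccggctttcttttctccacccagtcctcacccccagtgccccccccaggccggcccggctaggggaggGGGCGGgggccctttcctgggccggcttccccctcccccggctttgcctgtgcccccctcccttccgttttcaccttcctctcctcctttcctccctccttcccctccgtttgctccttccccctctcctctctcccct
Gabra3: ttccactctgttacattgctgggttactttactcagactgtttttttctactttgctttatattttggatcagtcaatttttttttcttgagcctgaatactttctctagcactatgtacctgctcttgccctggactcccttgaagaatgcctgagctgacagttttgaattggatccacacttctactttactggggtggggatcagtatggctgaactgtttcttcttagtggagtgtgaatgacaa
The Glrb stretch is 61.2% G and C with 16 CpG dinucleotides and 2 GC boxes. That of Grik5 is 70.8% G and C with 10 CpG dinucleotides and 1 GC box. Grin2c has 59.6% and 8 CpG dinucleotides, and Gabra3 has 40.4% and 0, both without a GC box. The GC box occurred in 14 of the 33 receptor promoters (42.4%) and in 8892 of all 27457 promoters of this length (32.4%). The median G and C content was 57.6% in the receptor promoters and 52% in all, and the median CpG count was 8 and 6. Among the same 33 promoters, TGACG, the core of the cyclic AMP response element, was found on either strand in 4 (12.1%, against 19% of all), and CAGCACC, part of the element bound by the neuronal repressor REST, in 1 (3.03%, against 5.51%). None of these motifs contains another on either strand, and a match here is a description of the letters alone.

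Of the labels, the sex of 6 arrays went against the level of Xist, an RNA made from the inactive X. These were hyperplasia replicates 1, 2, 5 and 6 and both young wild-type pools. The mean of 9 measured chromaffin cell markers was 12.91 to 13.08 in the young wild-type pools and 12.97 to 13.10 in hyperplasia. It was 12.28 and 12.72 in the older pools and 12.73 to 13.18 in pheochromocytoma. Each array thus carried chromaffin genes, which were high in all 4 groups. Their mean did not tell hyperplasia from young wild-type medulla. The lowest tumour lay just above the higher older pool, so the tumours and the older pools did not overlap. Of 13 listed adrenal cortex markers 11 were measured, and their mean was 11.65 to 11.80 in the young wild-type pools, 10.53 to 11.30 in hyperplasia, 12.01 to 12.31 in the older pools and 10.31 to 11.69 in pheochromocytoma, with 0 of the 11 below the first quartile on all 16 arrays. Signal at the 3′ end of hexokinase exceeded that at its 5′ end by 1.07 to 1.18 and 1.21 to 1.63 in the young wild-type and hyperplasia arrays, and by 2.29 to 2.92 and 2.16 to 3.30 in the older wild-type and pheochromocytoma arrays. A larger excess can mark degraded RNA, and it separates the arrays by age without overlap.

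Most of the receptor genes were dim. On all 16 arrays 13 of the 46 (28.3%) stayed below the first quartile of the array's probe sets, which was 4.71 to 4.93, compared with 1479 of all 14217 genes (10.4%). These were the GABA-A subunits Gabra2, Gabra4, Gabra5, Gabra6, Gabrb2, Gabrg3, Gabrp, Gabrr1 and Gabrr3, all 3 glycine receptor alpha genes (Glra1, Glra2 and Glra3) and the NMDA subunit Grin3a. A further 15 fell below it on some arrays. Only 6 lay above the array median on all 16 arrays (13%, against 59% of all genes): Gria2, an AMPA subunit whose edited form makes the channel impermeable to calcium, the kainate subunit Grik5, the obligatory NMDA subunit Grin1, the GABA-A delta subunit Gabrd, and both GABA-B genes, Gabbr1 and Gabbr2. Signal of different probe sets is not comparable as an amount of RNA, so no order among the genes is drawn from these levels. The delta receptor gene Grid1 averaged 5.11 ± 0.25 (SD, n = 2) in young wild type, 4.82 ± 0.11 (n = 8) in hyperplasia, 5.28 ± 0.06 (n = 2) in older wild type and 4.88 ± 0.15 (n = 4) in pheochromocytoma.

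**Figure D1:**
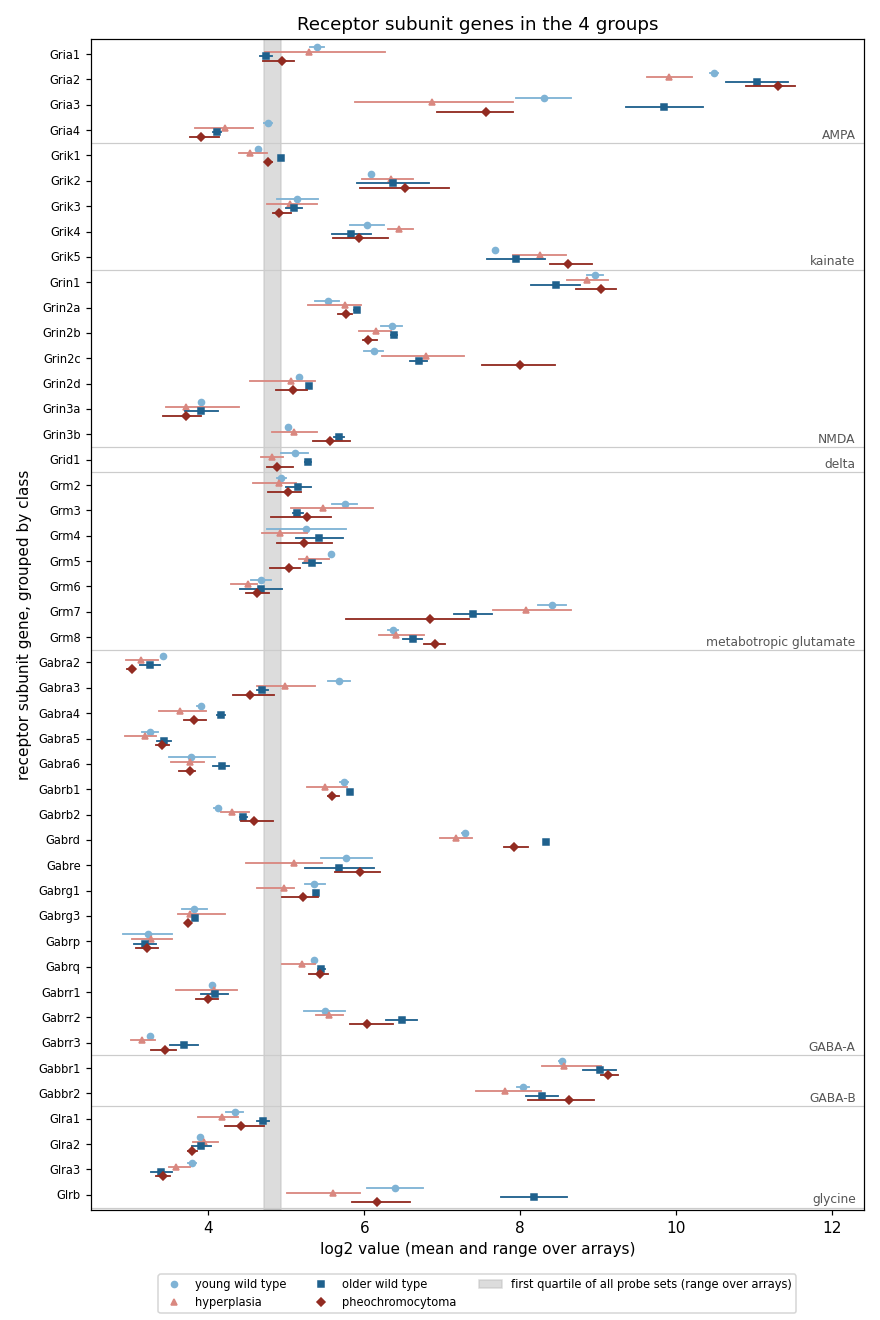
Log2 values of the 46 receptor genes by class, with a symbol at each group's mean and a line over the range of its arrays (2 young wild-type pools, 8 hyperplasias, 2 older wild-type pools, 4 pheochromocytomas). The grey band spans the arrays' first quartiles, 4.71 to 4.93, and the 13 genes that stay below their array's first quartile throughout include 9 of the 16 GABA-A genes.

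At 2 months, hyperplasia differed from wild-type medulla in 1 of the 46 receptor genes. That gene was Gabra3, a GABA-A alpha subunit, which was lower. The share of receptor genes past the test was 2.17%, and 8.50% of all measured genes passed, 5.16% higher and 3.33% lower (limma, Benjamini-Hochberg adjusted p under 0.05 over all 31042 probe sets). None was higher. At an unadjusted p under 0.05 there were 14, a count given without the share of all genes. The differences were negative for 33 genes and positive for 13, with a median of -0.12 compared with -0.01 over all genes.

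Gabra3 stood at 5.81 and 5.54 on young wild-type pools 1 and 2, and at 4.62 at the lowest, 4.94 at the median and 5.37 at the highest of the 8 hyperplasias. No hyperplasia reached either pool. The difference was -0.69 ± 0.17 (SE), or 1.62-fold lower, with an adjusted p of 0.0249 in limma. It was -0.61 (adjusted p = 0.212) without young pool 1 and -0.78 (adjusted p = 0.148) without pool 2, so the call needs both pools. With sex read from Xist in place of the label, 5 receptor genes passed (Gabra3, Glrb, Gria2 and Gria3 lower, Grin2c higher), beside 9.09% of all probe sets. Both young pools go against their sex label, so the comparison cannot be made without them.

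All 4 AMPA genes had negative differences in hyperplasia, from -1.43 to -0.10, and none passed the test. Gria3, an AMPA subunit encoded on the X chromosome, was 7.95 and 8.65 in the young pools and 5.88, 6.74 and 7.90 at the lowest, the median and the highest hyperplasia. Its highest hyperplasia lay just under the lower pool. The difference of -1.43 ± 0.43 had an adjusted p of 0.0568, and a dimmer Gria3 probe set gave -1.56 with an adjusted p of 0.0210 (limma). Gria2 was 10.53 and 10.43 in the pools and 9.62, 9.92 and 10.20 in hyperplasia, a difference of -0.58 ± 0.18 (adjusted p = 0.0567). Gria4 differed by -0.54 ± 0.18 (adjusted p = 0.0766) and Gria1 by -0.10 ± 0.31. Glrb, the glycine receptor beta subunit that binds the scaffold gephyrin, was 6.03 and 6.75 in the pools and 5.01, 5.72 and 5.94 in hyperplasia, with a difference of -0.79 ± 0.28 (adjusted p = 0.103). A dimmer Glrb probe set differed by -1.0 (adjusted p = 0.0372). For both Gria3 and Glrb the choice of probe set thus decides whether the threshold is passed, while the direction is the same in each.

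In the other direction, Grik5, a kainate subunit that raises glutamate affinity in mixed channels, was 7.68 and 7.65 in the young pools and 7.91, 8.23 and 8.59 in hyperplasia. All 8 hyperplasias lay above both pools, but the difference of 0.58 ± 0.18 had an adjusted p of 0.0652. The NMDA subunit Grin2c differed by 0.67 ± 0.24 (adjusted p = 0.104), and its lowest hyperplasia, 6.23, overlapped the higher pool, 6.24. Counting genes whose groups do not overlap gave 2 higher (Grik4 and Grik5) and 8 lower (Gabra2, Gabra3, Gabrg1, Glrb, Gria2, Gria3, Gria4 and Grm5). Over all genes 12.7% were higher and 10.9% lower by the same count, or 23.6% in all. The NMDA, metabotropic and GABA-B classes had no gene past the test here, with class medians of -0.09, -0.27 and -0.09.

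In pheochromocytoma, 6 of the 46 receptor genes passed the test against older wild-type medulla (13.0%, beside 15.3% of all genes, 8.85% higher and 6.49% lower). The NMDA subunit Grin2c and the kainate subunit Grik5 were higher. The AMPA subunit Gria3, the glycine receptor subunit Glrb and the GABA-A subunits Gabrd and Gabrr2 were lower. With an unadjusted p under 0.05 there were 11, again without the share of all genes. The median difference was -0.14, compared with 0 over all genes, and 31 differences were negative. By non-overlap, 3 genes were higher and 14 lower, while 42.3% of all genes separated (22.7% higher, 19.6% lower).

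Gria3 had the largest change of any receptor gene in this comparison. It stood at 9.35 and 10.34 in older wild-type pools 1 and 2 and at 7.76, 7.90, 7.65 and 6.93 in pheochromocytoma replicates 1 to 4. Every tumour was more than 1 log2 unit below the lower pool, and the difference was -2.33 ± 0.47, or 5.02-fold lower (adjusted p = 0.00625, limma). The dimmer probe set was 6.89 and 7.71 in the pools and 5.66 to 5.98 in the tumours, a difference of -1.46 (adjusted p = 0.0315).

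Glrb was 7.75 and 8.60 in the older pools and 6.58, 6.15, 5.84 and 6.09 in the tumours. The groups did not overlap, and the difference of -2.01 ± 0.31, or 4.02-fold lower, had an adjusted p of 0.00143. A dimmer probe set gave -1.25 (adjusted p = 0.0145), and the dimmest, at 2.58 to 3.15 on the 16 arrays, gave 0.07. Averaging the 3 probe sets left -1.06 (adjusted p = 0.00356).

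Grin2c, which encodes the NMDA subunit typical of cerebellar granule cells, was 6.58 and 6.81 in the older pools and 7.51, 7.73, 8.34 and 8.44 in the tumours. All 4 tumours lay above both pools. The difference was 1.34 ± 0.26, or 2.52-fold higher (adjusted p = 0.00528). Grik5 was 8.32 and 7.57 in the pools and 8.38, 8.48, 8.92 and 8.66 in the tumours. The pools themselves differ by more than the mean effect, and replicate 1 exceeds pool 1 only narrowly. The difference of 0.64 ± 0.20 had an adjusted p of 0.0467. Grin1, the partner that every NMDA receptor contains, was 8.77 and 8.14 in the pools and 9.19, 8.72, 9.23 and 9.02 in the tumours, a difference of 0.56 ± 0.18 that did not pass (adjusted p = 0.0594).

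Gabrd, the delta subunit of extrasynaptic GABA-A receptors, was 8.36 and 8.31 in the older pools and 7.95, 7.79, 8.10 and 7.83 in the tumours. The groups were separate but close, with a difference of -0.44 ± 0.12 (adjusted p = 0.0309). The name of this probe set marks it as matching more than 1 transcript, and averaging the 3 Gabrd probe sets gave -0.26 (adjusted p = 0.206). Gabrr2, a rho subunit of the GABA-A family best known from retina, was 6.67 and 6.28 in the pools and 5.82, 6.05, 6.37 and 5.91 in the tumours. Replicate 3 overlapped pool 2, and the difference was -0.50 ± 0.15 (adjusted p = 0.0437), or -0.31 (adjusted p = 0.0738) over both probe sets. No metabotropic glutamate gene, no GABA-B gene and no AMPA gene other than Gria3 passed. Among them, Gria2 differed by 0.22 ± 0.19 (adjusted p = 0.486) and the metabotropic receptor gene Grm7 by -0.63 ± 0.35 (adjusted p = 0.253).

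**Figure D2:**
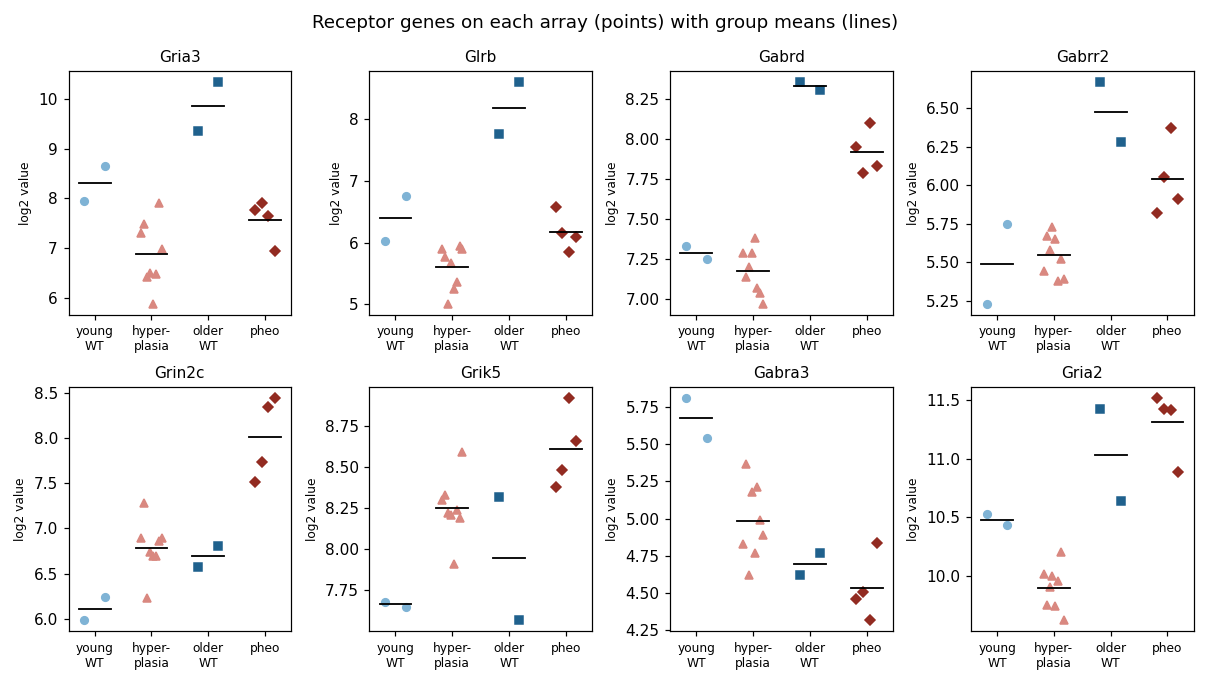
Log2 values on every array for 8 receptor genes (y axis, scaled per gene), with 1 symbol per array and a line at the mean of each group on the x axis. On their brightest probe sets, Gria3 and Glrb are highest in the older wild-type pools, at 9.35 and 10.34 and at 7.75 and 8.60. Grin2c is highest in the 4 pheochromocytomas, at 7.51 to 8.44.

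None of the 6 calls held whichever array was left out. Without older wild-type pool 2, the pool of the oldest animals, 0 of 46 passed and 1.5% of all probe sets did. The differences then were -1.69 (adjusted p = 0.165) for Gria3, -1.55 (adjusted p = 0.0507) for Glrb, 1.40 (adjusted p = 0.0646) for Grin2c, 0.29 (adjusted p = 0.579) for Grik5, -0.42 (adjusted p = 0.227) for Gabrd and -0.59 (adjusted p = 0.163) for Gabrr2. Without pool 1 Gabrd was -0.46 (adjusted p = 0.0978) and Gabrr2 was -0.39 (adjusted p = 0.248). Without pheochromocytoma replicate 4, the only tumour labelled male, 3 passed: Glrb, Gria3 and Grin2c. Grik5 was then 0.58 (adjusted p = 0.131) and Gabrd -0.42 (adjusted p = 0.0823). Gabrr2 and Grik5 were the least stable, losing the call on 10 and 12 of the 16 arrays left out in turn, over ranges of -0.59 to -0.39 and 0.29 to 1.04. Of the 6 genes, Gabrr2 alone also lost its call with no sex term and with sex read from Xist in place of the label. Gabrd lost it also without replicate 2 (-0.39, adjusted p = 0.0674). Leaving out all 6 arrays whose Xist level goes against the label, with no sex term, kept Glrb, Gria3 and Grin2c. Centring each array on its median or quantile normalization gave 1 higher and 5 lower, each without Grik5.

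Some adrenal cortex markers also differed from wild type in the lesions. Of the 11 measured, 6 fell in pheochromocytoma against older wild type (Nr5a1, Hsd3b1, Scarb1, Fdx1, Akr1b7 and Soat1), beside 6.49% of all genes called lower, and 2 fell in hyperplasia against young wild type (Scarb1 and Fdx1), beside 3.33%. In whole tissue, fewer cells of a type and less RNA per cell cannot be told apart. The older pools, where the brightest probe sets of Gria3 and Glrb were highest, also had the highest cortex means, 12.01 and 12.31. The dimmer probe sets did not share this order. That of Gria3 averaged 7.47 in young and 7.30 in older wild type. Those of Glrb averaged 5.03 and 3.03 in young and 4.79 and 2.72 in older wild type. Pheochromocytoma replicate 4 had the lowest cortex mean of all arrays, 10.31, and the lowest Gria3 of the tumours, whereas Glrb was lowest in replicate 3 (5.84, with 6.09 in replicate 4). With the cortex mean as a covariate, 0 of 46 receptor genes and 0.203% of all probe sets passed in pheochromocytoma. The Gria3 difference was then -1.33 ± 0.59 (adjusted p = 0.392), Glrb -1.34 ± 0.38 (adjusted p = 0.181) and Grin2c 1.19 ± 0.38 (adjusted p = 0.243). Gabra3 in hyperplasia kept its size, -0.70, with an adjusted p of 0.173, and 0.973% of all probe sets passed there. The cortex mean separates each lesion from its wild-type pools without overlap (10.31 to 11.69 in pheochromocytoma). This covariate therefore cannot be told apart from the group, and the part of the cortex was not tested. Markers of other cell types moved as well.

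Of the 9 chromaffin markers, 3 rose in pheochromocytoma and 0 fell (limma). They were the catecholamine synthesis gene Ddc (0.85 ± 0.19, adjusted p = 0.0104), the vesicular amine transporter gene Slc18a1 (0.69 ± 0.20, adjusted p = 0.0315) and the transcription factor gene Phox2a (0.78 ± 0.18, adjusted p = 0.0102). Of 7 Schwann and sustentacular markers, S100b fell by 1.42 (adjusted p = 0.00672), whereas the myelin gene Mbp rose by 0.91 (adjusted p = 0.0197) and Ngfr by 0.62 (adjusted p = 0.0337). Their mean was 7.06 to 7.10 in the older pools and 7.14 to 7.31 in the tumours. Rgs5, a pericyte marker, rose by 2.08 (adjusted p = 0.00786). It was the 1 gene called among 8 fibroblast and pericyte markers, whose mean was 8.43 to 8.46 in the older pools and 8.55 to 9.24 in the tumours. The endothelial gene Tek fell by 0.64 (adjusted p = 0.0412), and 0 of 8 macrophage and leukocyte markers were called. In hyperplasia Phox2a, Ngfr and Cd74 rose and Pnmt and Pdgfra fell. The part of these cell types in the receptor results was not tested.

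**Figure D3:**
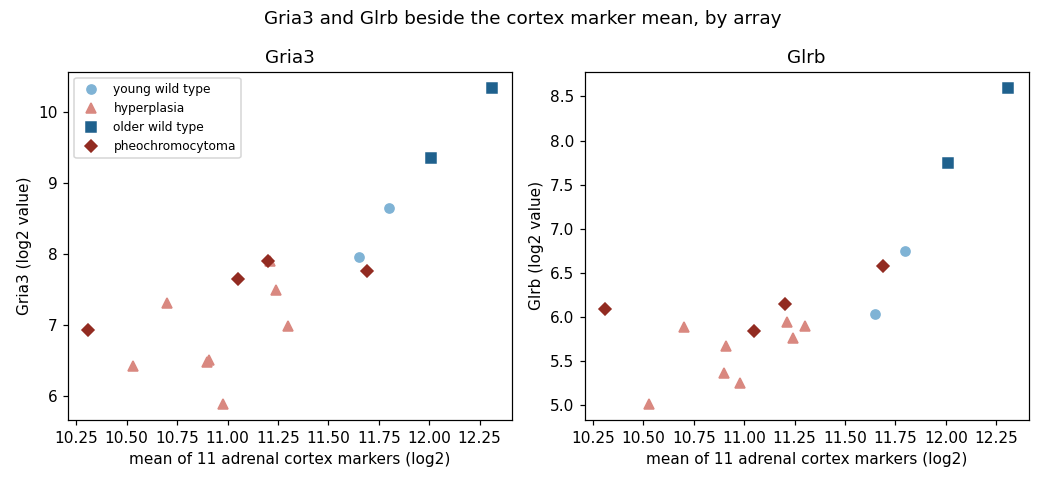
Log2 value of Gria3 (left) and Glrb (right) on the y axis against the mean of 11 adrenal cortex markers on the x axis, with 1 symbol per array for the 4 groups. The older wild-type pools lie at the upper right in both panels, with cortex means of 12.01 and 12.31, and the group differences are part of the pattern.

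Whether the tumour effect differed from the hyperplasia effect was tested as the difference of the differences. No receptor gene passed (0 of 46, limma, the only tool run), and over all genes 0.00703% did. An unadjusted p under 0.05 was reached by 6, also without the share of all genes. The smallest p belonged to Gria2, for which the tumour difference exceeded the hyperplasia difference by 0.81 ± 0.26 (adjusted p = 0.299). For Glrb the tumour difference minus the hyperplasia difference was -1.21 ± 0.42 (adjusted p = 0.317). Grin2c, with 0.66 ± 0.35 (adjusted p = 0.517), and Gria3, with -0.90 ± 0.64 (adjusted p = 0.637), are thus not shown to differ between the lesions, although each passed in the tumours and not in hyperplasia. The sizes rest on single pools, since the Gria2 value was 0.50 and the Glrb value -0.76 without older pool 2. The groups of the 2 comparisons share no array, but both came from the same fit of all 16 arrays. Its sex term and its spread per probe set are common to both. Both differences were negative for 26 of the 46 genes (56.5%) and for 5212 of all 14217 (36.7%). Both were positive for 8 receptor genes and for 4963 of all. The signs were opposite for 12 receptor genes and for 4042 of all.

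**Figure D4:**
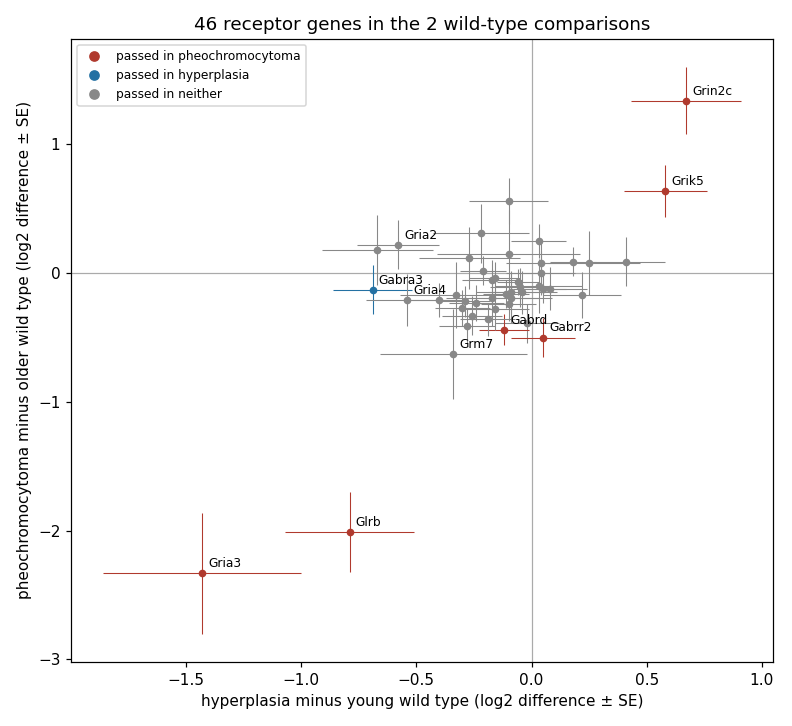
Difference in hyperplasia from young wild type (x axis) against the difference in pheochromocytoma from older wild type (y axis) for the 46 receptor genes, in log2 units with standard errors. Gria3 and Glrb lie at the lower left and Grin2c and Grik5 at the upper right, while Gabra3 is the only gene past the test in hyperplasia.

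Between the lesions, pheochromocytoma exceeded hyperplasia in 12 receptor genes and was lower in 3. These 15 genes are 32.6% of the 46, beside 33.8% of all genes (14.6% higher, 19.2% lower). The lesions differ in age as well, and 5′ to 3′ signal separates them as given above, so lesion, age and RNA quality cannot be told apart in this comparison. By non-overlap 8 were higher and 2 lower, with 22.3% of all genes separated (9.28% higher and 13.0% lower). Median differences were 0.12 for the receptor genes and -0.02 for all genes.

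Gria2 rose most among the glutamate receptor genes, with 10.89, 11.42 and 11.52 at the lowest, the median and the highest tumour and at most 10.20 in hyperplasia. The difference was 1.36 ± 0.14, or 2.57-fold (adjusted p = 2.28e-06, limma), and a dimmer probe set gave 0.68 (adjusted p = 0.0167). Grin2c was 1.24 ± 0.19 higher (adjusted p = 9.92e-05), and its lowest tumour, 7.51, exceeded its highest hyperplasia, 7.28. Grm7, a presynaptic metabotropic receptor gene that restrains transmitter release, went the other way. It was 7.34, 7.07, 7.17 and 5.77 in the tumours and 7.65, 8.09 and 8.65 at the lowest, the median and the highest hyperplasia, a difference of -1.30 ± 0.25 (adjusted p = 0.00074). Its relative Grm8 was 0.46 ± 0.10 higher (adjusted p = 0.00129), at 6.84, 7.03, 6.98 and 6.76 in the tumours, where the lowest equals the highest hyperplasia at the printed precision, although the mean over its 3 probe sets gave 0.19 (adjusted p = 0.0668). The kainate subunit gene Grik4 differed by -0.52 ± 0.13 (adjusted p = 0.00626), with 5.60 to 6.30 in the tumours just under the 6.31 to 6.62 of hyperplasia, and -0.36 (adjusted p = 0.0674) without pheochromocytoma replicate 4.

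Both GABA-B genes were called. Gabbr1 was 9.25, 9.11, 9.04 and 9.14 in the tumours and 8.28, 8.54 and 9.03 at the lowest, the median and the highest hyperplasia, a difference of 0.54 ± 0.12 (adjusted p = 0.00179). Of its 4 other probe sets, 2 passed in the same direction (0.90 and 0.42) and the others gave -0.35 and -0.11 without passing. Gabbr2 was 8.65, 8.82, 8.10 and 8.95 in the tumours and 7.43 to 8.27 in hyperplasia, a difference of 0.78 ± 0.17 (adjusted p = 0.0018). Its other probe set went the opposite way, by -0.80 (adjusted p = 4.29e-05), and the mean of both gave -0.01, so no direction holds for Gabbr2 as a gene.

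Among GABA-A genes, Gabrd was 0.73 ± 0.09 higher in pheochromocytoma (adjusted p = 1.23e-05), and 0.38 higher (adjusted p = 0.00787) as the mean of its 3 probe sets. Gabre was 0.77 ± 0.19 higher (adjusted p = 0.005) and Gabrr2 0.44 ± 0.11 (adjusted p = 0.00501). Each separated the lesions without overlap. Gabra3 differed by -0.42 ± 0.14 (adjusted p = 0.0236), and its values overlapped. Gabrb2 (0.25), Gabrr3 (0.30), Grik1 (0.24) and Grin3b (0.45) completed the list. Gabrb2 and Gabrr3 lie below the first quartile on every array and Grik1 on 15 of 16, and a dimmer Grin3b probe set gave -0.44 with an adjusted p of 0.00286, leaving no direction for Grin3b as a gene. Of the 15 calls, 10 stood whichever array was left out. Gabra3 lost its call without pheochromocytoma replicate 1 (-0.41, adjusted p = 0.0541), Gabrb2 without the same array (0.18, adjusted p = 0.0977), Gabrr3 without replicate 2 or 4 (lowest 0.25, highest adjusted p = 0.0807), and Grik1 without replicate 2, 3 or 4 or hyperplasia replicate 1 (lowest 0.21, highest adjusted p = 0.0782). Gabra3 also lost it without replicate 3 or hyperplasia replicate 4. Quantile normalization gave 11 higher and 6 lower, 13 of the 15 among them, without Gabrb2 (0.16, adjusted p = 0.153) and Grik1 (0.13, adjusted p = 0.227). Leaving out all 6 arrays whose Xist level goes against the label, with no sex term, gave 11 genes. Gabra3 (-0.39, adjusted p = 0.0603), Gabrb2 (0.28, adjusted p = 0.0959), Gabrr3 (0.30, adjusted p = 0.0604) and Grik1 (0.23, adjusted p = 0.0577) then lost their calls, and without the 4 such hyperplasias alone Gabra3 and Gabrb2 did.

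Age in wild-type tissue was compared with 2 pools against 2. Of the 46 genes 5 were higher in the older pools (Gabrd, Gabrr2, Gabrr3, Glrb and Grin3b) and 3 lower (Gabra3, Glra3 and Gria4), which is 17.4% beside 21.1% of all genes (8.45% higher, 12.7% lower). By non-overlap there were 18 higher and 9 lower, against 59.8% of all genes (26.0% higher, 33.8% lower). On its brightest probe set Glrb rose by 1.78 ± 0.35, from 6.03 and 6.75 to 7.75 and 8.60 (adjusted p = 0.00235, limma). The means of its dimmer probe sets went down, from 5.03 to 4.79 and from 3.03 to 2.72. Gabrd rose by 1.04 ± 0.14 (adjusted p = 0.000112) and Gabrr2 by 0.99 ± 0.17 (adjusted p = 0.000989, limma). Gabra3 went from 5.81 and 5.54 to 4.62 and 4.77, a difference of -0.98 ± 0.22 (adjusted p = 0.00479). Gria3, with 1.54 ± 0.54, did not pass (adjusted p = 0.0514). The Gabra3 probe set was highest in young wild type, lower in hyperplasia and lower again in both older groups, with means of 5.67, 4.98, 4.69 (older wild type) and 4.53 (pheochromocytoma), and in those older groups it lay below the first quartile on every array. The 3′ to 5′ signal differs between these pools too. Cell type markers separated them as well. From the young to the older pools the fibroblast and pericyte mean went from 9.33 and 9.34 to 8.46 and 8.43, the macrophage and leukocyte mean from 9.12 and 9.19 to 8.65 and 8.78, the chromaffin mean from 13.08 and 12.91 to 12.72 and 12.28, and the cortex mean from 11.65 and 11.80 to 12.01 and 12.31. The part of these markers and of the 3′ to 5′ signal was not tested.

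Only Gabra3, Gabrd and Gabrr2 passed whichever array was left out of the age comparison. Without older pool 2 the Glrb difference was 1.30 (adjusted p = 0.0511), and averaged over its 3 probe sets it was 0.41 (adjusted p = 0.21). The mean of the 3 Gabrd probe sets gave 0.42 (adjusted p = 0.0649) and that of the 2 Grin3b probe sets 0.14 (adjusted p = 0.482). Gabrr3 and Glra3 lost their calls without either young pool or older pool 2, and Grin3b and Gria4 without any 1 of the 4 pools. Gabrr3 lost its call on 8 and Gria4 on 11 of the 16 arrays left out in turn, lesion arrays among them. Glra3 and Gabrr3 lie below the first quartile on all 16 arrays and Gria4 on 15. Centring each array on its median gave 6 higher and 1 lower.

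**Figure D5:**
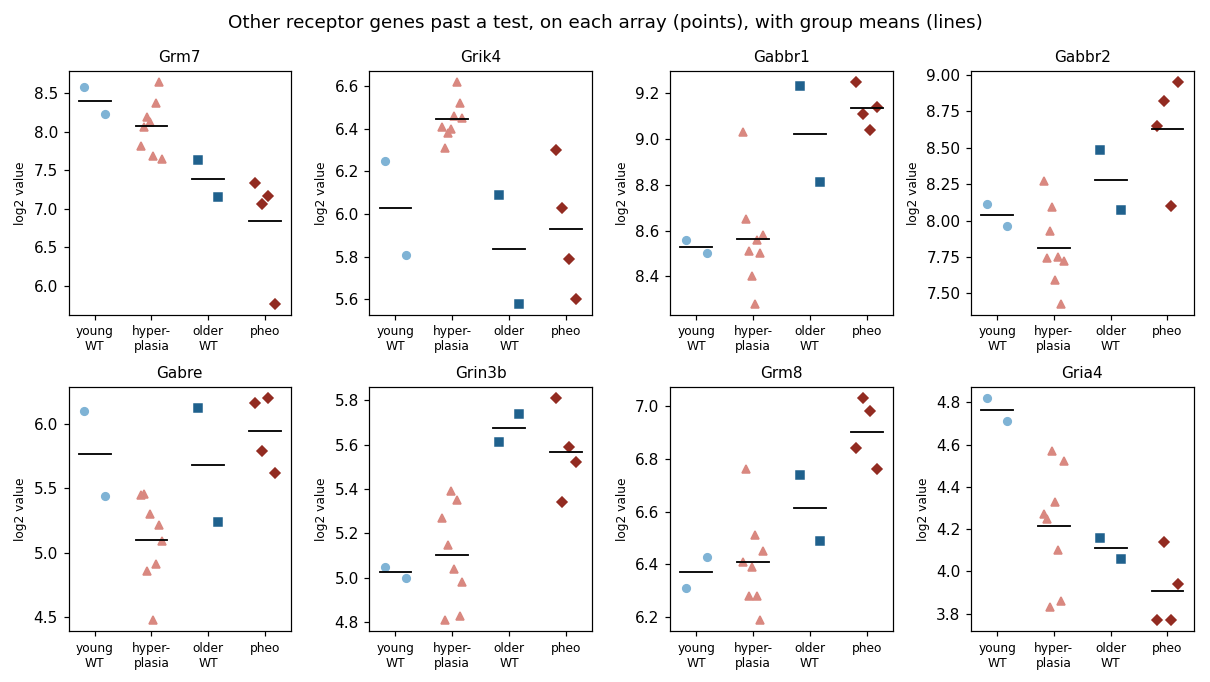
Log2 values on every array for 8 further receptor genes that passed a test between the lesions or between wild-type ages (y axis, scaled per gene), with 1 symbol per array and a line at each group's mean. Grm7 falls to 5.77 on pheochromocytoma replicate 4 and is 7.65 to 8.65 in hyperplasia, and Gabbr1 is 9.04 to 9.25 in the tumours.

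Of 73 listed genes for the synthesis, transport and anchoring of these transmitters and receptors 63 were measured. In hyperplasia 3 of them were higher and 8 lower than in young wild type, and 52 did not pass (median difference 0, compared with -0.01 over all genes). The 11 called are 17.5% of the list, beside 8.50% of all genes (5.16% higher, 3.33% lower). In pheochromocytoma 8 were higher and 11 lower than in older wild type, and 44 did not pass (median -0.12, compared with 0 over all genes). The 19 called are 30.2%, beside 15.3% of all genes (8.85% higher, 6.49% lower). The list was written with earlier results of these data known, so these shares are a description without a test. The enzymes that make GABA were dim throughout, with Gad1 at 4.05 to 4.60 and Gad2 at 3.71 to 4.35, and so was the vesicular GABA and glycine transporter gene Slc32a1 at 3.34 to 4.30, all below the first quartile on all 16 arrays.

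In hyperplasia Cbln1, a secreted protein that links delta glutamate receptors to neurexins, was 4.15 and 4.56 in the young pools and 5.18, 6.52 and 7.24 at the lowest, the median and the highest lesion, a difference of 1.94 ± 0.46 (adjusted p = 0.0195, limma). The postsynaptic scaffold Shank2 was 0.84 ± 0.13 higher (adjusted p = 0.00178), and the pentraxin receptor gene Nptxr 0.62 ± 0.14 (adjusted p = 0.0181). Nptx1, a neuronal pentraxin that gathers AMPA receptors, was lower, at 6.55 to 7.33 in the pools and 3.88 to 5.02 in the lesions, a difference of -2.20 ± 0.52 (adjusted p = 0.0193). Also lower were Slc1a1, a glutamate transporter of the plasma membrane (-1.87 ± 0.33, adjusted p = 0.00352), the scaffold Homer1 (-1.14 ± 0.30, adjusted p = 0.0305) and the glutaminase gene Gls2 (-1.13 ± 0.23, adjusted p = 0.00866). Of these 7, Shank2 alone passed whichever array was left out, although the mean of its probe sets was 0.44 (adjusted p = 0.00871) and that of the Nptxr probe sets 0.14 (adjusted p = 0.403), and Slc1a1 was -1.38 (adjusted p = 0.104) without young pool 1. With the cortex mean as a covariate Shank2 and Nptx1 passed, and Homer1 was -0.41 (adjusted p = 0.449).

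In pheochromocytoma the scaffolds Homer2 (1.51 ± 0.42, adjusted p = 0.0306), Dlgap1 (1.06 ± 0.20, adjusted p = 0.00484) and Dlg4 (0.76 ± 0.21, adjusted p = 0.0268) were higher, as was Shmt2, a mitochondrial enzyme that forms glycine from serine (0.71 ± 0.18, adjusted p = 0.0214). Lower were the amino acid transporters Slc1a4 (-1.58 ± 0.38, adjusted p = 0.0145) and Slc1a1 (-1.47 ± 0.36, adjusted p = 0.0165), Homer1 (-1.47 ± 0.33, adjusted p = 0.0101) and the cytosolic glycine-forming enzyme gene Shmt1 (-1.24 ± 0.37, adjusted p = 0.0414). Of the 15 measured excitatory scaffolds 5 were higher and 3 lower, and of the 10 plasma membrane transporters 0 were higher and 3 lower, beside 8.85% of all genes higher and 6.49% lower. The 2 lists were not tested against each other. Dlgap1 alone of the 8 named genes passed whichever array was left out, but the mean of its probe sets gave 0.42 (adjusted p = 0.135), and that of the Dlg4 probe sets 0.21 (adjusted p = 0.34). Without older pool 2 the other 7 lost their calls, with Shmt1 at -0.39 (adjusted p = 0.655), and with the cortex mean as a covariate 0 of the 8 passed.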

How the data were processed

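RNA extraction used Trizol followed by a column kit and DNase. The RNA was amplified, labelled with biotin and hybridised to an Affymetrix rat array, per the labels' protocols. The deposited values are log2 signals, made by the authors with RMA (background correction, quantile normalization and probe summary), per the submitters' processing notes; its version and the arrays normalized together are not given in the sources used here. The number of arrays limits the precision, and each wild-type array is a pool of 2 or 3 animals, which hides the spread between animals.

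The 57 control probe sets were left out. Symbols came from the platform annotation: 20826 probe sets have 1 symbol, 436 several and 9780 none, and all 78 receptor probe sets matched a rat gene table by Entrez identifier, where 0 symbols changed. Linear models of all 16 arrays, with the 4 groups and labelled sex as terms, were run in R 4.3.3 using limma 3.58.1 with empirical Bayes moderation (11 residual and a median of 3.97 prior degrees of freedom), and tests were two-sided. P-values were adjusted by Benjamini-Hochberg over 31042 probe sets, with a threshold of 0.05. The fit was tested on simulated data. A log2 value above 8 counted as Xist present. Figures were drawn with matplotlib 3.10.9 in Python 3.11.15.

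The receptor genes, the pathway and marker lists and the alternatives were chosen with earlier results of these data known. Named are the receptor genes past the threshold in any comparison, the 2 with the smallest p where none passed, the brightest gene of each class, and up to 4 pathway genes per direction with the largest changes against wild type. Other receptor genes are named for completeness of the family. Replicate numbers did not pair the arrays: residuals of the 14 same-numbered pairs had a median correlation of -0.012, with -0.18 at the lowest. Alternatives covered the sex term, the arrays fitted, the prior, dim probe sets, normalization, array weights, the replicate block, a cortex covariate, averaged probe sets and each array left out.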

Additional observations from a re-analysis of the deposited data

Results flagged for a closer look

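In pheochromocytoma replicate 4, the only tumour labelled male, Gria2 was 10.89 while the other tumours were 11.42 to 11.52. The gap to the nearest tumour was 0.844 of the group's whole range, past Dixon's limit for 4 samples. It was the 1 such array among 44 groups looked at for the named receptor genes, and chance marks about 1 in 20 groups.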

How the results depend on the processing

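The counts of receptor genes past the threshold depended on the arrays and on the fit. In hyperplasia against young wild type (1 gene), 5 passed with sex read from Xist, 4 with only the groups compared, 2 each with an intensity trend and robust prior, median centring or array weights, 4 with the mean of all probe sets, and 0 with the cortex covariate. Leaving out 1 array gave 0 (either young pool) to 4 (either older pool). In pheochromocytoma against older wild type (6), 3 passed with only the groups compared, with array weights, without the 6 arrays whose Xist level goes against the label, and, chosen after seeing the data, without the 4 such hyperplasia arrays. Glrb, Gria3 and Grin2c were the 3 in each, 0 passed with the cortex covariate, and leaving out 1 array gave 0 (older pool 2) to 8. Between wild-type ages (8), 3 passed with only the groups compared and 5 each without the 30% dimmest probe sets, with array weights and with the mean of all probe sets, and leaving out 1 array gave 4 to 9. Between the lesions (15) leaving out 1 array gave 12 to 18, and for the difference of the effects it gave 0 throughout. With the replicate block the 5 counts were 1, 6, 0, 15 and 8, so it changed no count. Gabbr2 between the lesions was -0.01 with the mean of its probe sets. The cause of these changes was not tested. Where 1 wild-type pool is left, its spread is taken to be that of the others. Without all 6 arrays no young pool remains, so that setting gives no value for hyperplasia against wild type, the difference of the effects or wild-type age. Dim probe sets limit many of the 46 genes: 13 lay below the first quartile on all 16 arrays and a further 15 on some arrays.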

Other observations

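Xist divided the 8 hyperplasias into 4 arrays with it and 4 without, and 5 of the 46 receptor genes had values that did not overlap between them, all lower with Xist (17.6% of all genes separated). Gria3 was 5.88 to 6.5 with Xist and 6.98 to 7.90 without. Glrb was 5.01 to 5.67 and 5.76 to 5.94, Grin1 8.60 to 8.86 and 8.90 to 9.13, Grin2c 6.23 to 6.74 and 6.86 to 7.28, and the dim Gabra4 3.37 to 3.57 and 3.64 to 3.97. These arrays were divided by a measured gene, so the values are a description without a test. The cortex marker mean ran from 10.53 to 10.98 where Xist was present and from 10.70 to 11.30 where it was not. These ranges overlap, and the part of the cortex was not tested. Gria3 and Glrb are also the receptor genes with the largest falls against wild type in pheochromocytoma.

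The sodium, potassium and chloride importer gene Slc12a2, which loads cells with chloride, was 9.34 and 9.77 in the older pools and 9.95 to 10.51 in pheochromocytoma, a difference of 0.61 ± 0.16 (adjusted p = 0.0239, limma). Its counterpart Slc12a5, the neuronal chloride exporter gene, differed by 0.15 ± 0.21 (adjusted p = 0.675) there and by 0.69 ± 0.15 (adjusted p = 0.00185) between pheochromocytoma and hyperplasia. Both genes were called higher between the lesions (14.6% of all genes were), where lesion, age and RNA quality cannot be told apart. Between wild-type ages 1 of the 2 was called higher (8.45% of all genes were). From young to older wild type the means went from 9.30 to 9.55 for Slc12a2 and from 7.16 to 7.90 for Slc12a5. Both genes were chosen after their values were seen.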
